A study of Mus musculus with 34 samples.

Results

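The adult globin genes are the 4 mouse genes that encode the protein chains of adult haemoglobin: the alpha chain genes Hba-a1 and Hba-a2 and the beta chain genes Hbb-bs and Hbb-bt. They were taken by symbol, with no threshold on their values, and are 4 of 51368 genes in the table. The set was proposed with results of these data in view, so it counts as selected on its own levels across the library types, and those levels are described without a test. The study sequenced RNA from tissue of 1 wild-type C57BL/6J mouse aged 12 weeks, whose sex the labels give differently in 2 fields, and compared ways of keeping ribosomal RNA (rRNA) out of RNA-seq libraries. The 33 liver libraries were prepared from the same liver RNA, so they are technical preparations and every spread below is between preparations, not between animals. PolyA selection (9 libraries, batch 1) captures RNA by its poly(A) tail, rRNA pull-down (9 libraries, batch 2) removes rRNA with hybridising probes, and rRNA digestion (9 libraries, batch 2; Ribo-Zero Plus chemistry) degrades RNA that is bound to DNA probes. Each set of 9 crosses 3 PCR ramp rates (the speed at which the thermocycler changes temperature: slow, medium, fast) with 3 fragment lengths (short, medium, long). Unselected liver RNA, with no rRNA step, was prepared in 3 libraries of batch 1 and 3 of batch 2, and unselected heart RNA of the same mouse in 1 library of batch 1. These 7 had medium fragments and the slow ramp. Input was 200 ng for the selected and 20 ng for the unselected libraries, and all were amplified for 13 cycles. Each method was run in 1 batch, so a difference between polyA and pull-down cannot be told apart from one between batches, while unselected liver was prepared in both.

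As background, each haemoglobin molecule is built from alpha and beta chains that each hold a haem group and carry oxygen. The genes are transcribed at very high rates in red cell precursors, and young red cells that have lost their nucleus still hold globin mRNA, so blood left in a tissue brings globin mRNA into its RNA. Because these transcripts can dominate RNA from blood, some commercial depletion kits, Ribo-Zero Plus among them, are sold with probes against globin mRNA as well as rRNA.

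The copies within a pair are close to identical, which bears on every value given for a single gene. Salmon, the program behind the deposited counts, assigns a read that fits more than 1 transcript in proportion to an estimate of their abundances. In the GENCODE M21 annotation of GRCm38, Hba-a1 (chr11:32283511-32284465, plus strand) and Hba-a2 (chr11:32296489-32297298, plus strand) have coding sequences of 429 bases that differ at 1 position, and Hbb-bs (chr7:103826534-103828096, minus strand) and Hbb-bt (chr7:103812524-103813996, minus strand) have coding sequences of 444 bases that also differ at 1 position. Both differences lie in the last coding exon. Counted from 1 at the A of the start codon, the change from Hba-a1 to Hba-a2 is C381T and the change from Hbb-bs to Hbb-bt is C417T. The 61-base coding windows that hold these positions are shown because they are the only coding bases by which a read can be given to one copy; the capital marks the base that differs, and each window reads 5′ to 3′ on the gene's strand (chr11:32284313-32284373, chr11:32297130-32297190, chr7:103826665-103826725 and chr7:103812656-103812716, in the order listed).
Hba-a1: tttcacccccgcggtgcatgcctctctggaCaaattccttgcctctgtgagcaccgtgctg
Hba-a2: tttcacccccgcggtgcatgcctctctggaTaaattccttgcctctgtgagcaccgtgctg
Hbb-bs: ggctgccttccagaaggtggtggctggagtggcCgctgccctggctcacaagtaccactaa
Hbb-bt: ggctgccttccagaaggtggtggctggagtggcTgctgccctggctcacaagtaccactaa

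Over whole transcripts, untranslated ends included, the share of 31-base words found in no other gene's transcripts was 28.6% for the 699-base model of Hba-a1, 9.0% for the 554-base model of Hba-a2, 33.1% for the 628-base model of Hbb-bs and 40.6% for the 703-base model of Hbb-bt. Of the words of Hba-a2, 91.0% also occur in Hba-a1. The GENCODE model of Hba-a1 begins 161 bases upstream of the RefSeq start of the gene, against 3 bases for Hba-a2. The summed level of the 4 genes, or the alpha and the beta sum, does not depend on how reads were divided within a pair, and the values of single copies do.

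Libraries held 19.9 to 41.4 M expected counts, except that the pull-down library with slow ramp and long fragments held 1.13 M. Transcripts of rRNA genes together with Lars2 held 84.8% to 85.7% of counts in unselected liver, 14.2% to 24.5% after pull-down, 0.214% to 0.406% after polyA selection and 0.363% to 1.12% after digestion. Levels are therefore given as normalised CPM (counts relative to library totals scaled by TMM, edgeR's trimmed mean of M-values), and fold changes are relative to that scale. On plain library totals the median log2 fold change of all 15422 genes tested was 2.67 for polyA, 2.31 for pull-down and 2.85 for digestion against unselected liver. The labelled tissue matched its markers: the summed hepatocyte markers (Alb and 6 others) ran from 45509 to 76556 normalised CPM in liver, and the summed cardiomyocyte markers (Myh6 and 6 others) reached at most 0.838.

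The 4 globin genes were scarce in every library made by rRNA digestion, and near or above their unselected level after polyA selection and pull-down. The mean of unselected batch 2 was 173 times the digestion mean for Hba-a1, 71.5 times for Hba-a2, 45.3 times for Hbb-bs and 43.2 times for Hbb-bt. Their summed level was 259, 249 and 247 normalised CPM in the 3 unselected libraries of batch 1 and 231, 216 and 223 in those of batch 2. After polyA selection it had a lowest value of 303, a median of 330 and a highest of 418, and after pull-down 304, 332 and 444. After digestion it had a lowest value of 2.75, a median of 3.25 and a highest of 4.55. Digestion libraries thus stood apart from all others with no overlap, and the polyA and pull-down ranges lay over each other. The mean of the unselected libraries of batch 2 was 62.4 times that of the digestion libraries, the pull-down mean 99.1 times and the polyA mean 96.7 times. Between batches, the unselected mean of batch 2 was 0.886 times that of batch 1. In reads, a digestion library held 92 to 217 globin counts in all, against 1034 to 1106 in the unselected libraries of its batch, although rRNA filled most of the latter.

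**Figure D1:**
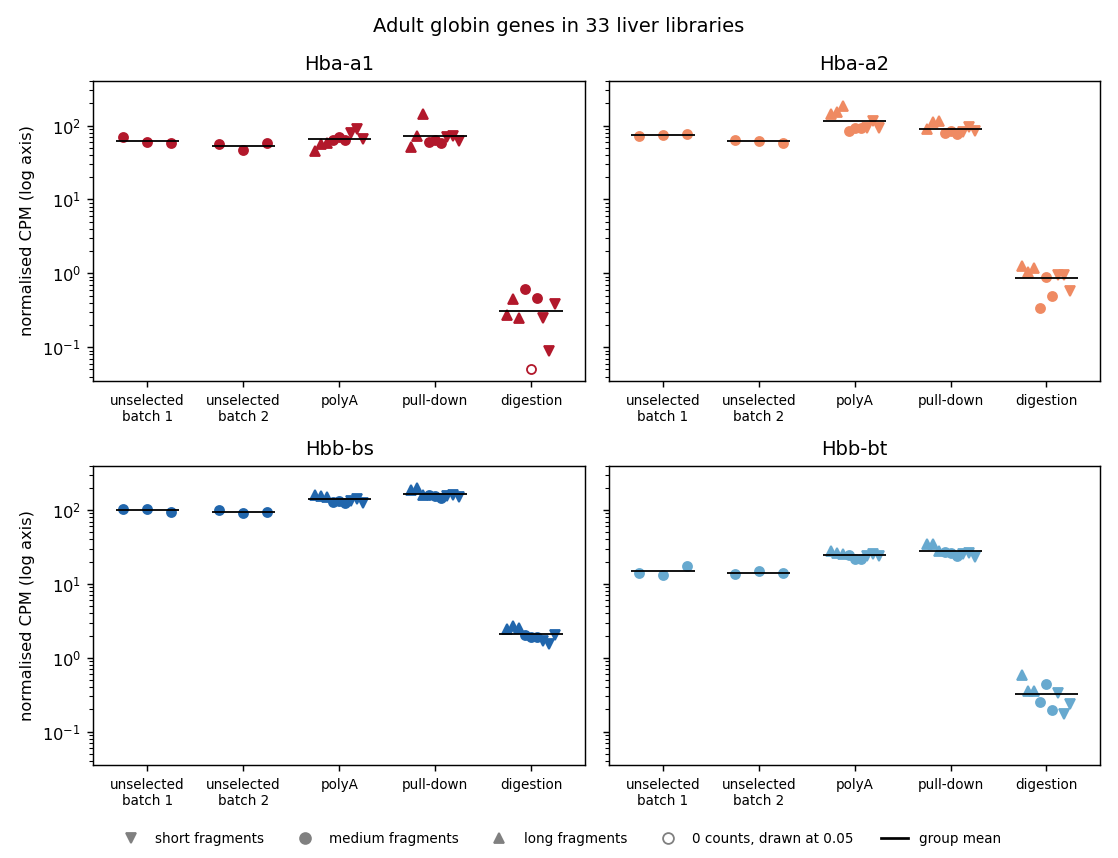
Normalised CPM (log axis) of each adult globin gene in the 33 liver libraries, by group; each marker is 1 library, its shape gives the fragment length, the line is the group mean, and the open marker is a library listed at 0. For every gene the 9 digestion libraries lie below all other libraries, and polyA and pull-down libraries overlap.

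Hba-a1, the first alpha gene, was at 55.8, 47.0 and 57.4 normalised CPM in unselected batch 2 and at 69.9, 59.9 and 58.3 in batch 1. It was listed at 0 in 1 digestion library, with a median of 0.271 and a highest value of 0.614 in that set. In digestion it rested on at most 25.1 counts in a library, which limits its precision there. Its log2 fold change against unselected liver, from edgeR's quasi-likelihood fit on all 33 libraries, was -7.42 (SE 0.32) after digestion, 0.04 (SE 0.24) after polyA selection and 0.31 (SE 0.24) after pull-down, or 0.16 without the pull-down library of 1.13 M counts. Hba-a1 is the member whose polyA and pull-down libraries overlapped the unselected ones, and its difference for polyA was within its error and changed sign with the scaling.

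Hba-a2, the other alpha gene, was at 62.9, 62.2 and 58.3 normalised CPM in unselected batch 2 and at 71.4, 74.0 and 76.2 in batch 1. The digestion libraries had a lowest value of 0.339, a median of 0.959 and a highest of 1.25. The log2 fold change was -6.43 (SE 0.16) after digestion, 0.36 (SE 0.13) after polyA selection and 0.32 (SE 0.13) after pull-down. Its polyA range was wide, from 84.1 to 184 with a median of 93.6, with all 3 long-fragment libraries above the 6 others.

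Hbb-bs, the more abundant beta gene, was at 99.0, 91.5 and 93.2 normalised CPM in unselected batch 2 and at 104, 102 and 95.01 in batch 1. The digestion libraries had a lowest value of 1.53, a median of 2.02 and a highest of 2.67. Its log2 fold change was -5.65 (SE 0.07) after digestion, 0.32 (SE 0.07) after polyA selection and 0.64 (SE 0.07) after pull-down. With 51.1 to 128 counts in each digestion library, it is the member measured best there.

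Hbb-bt, the less abundant beta gene, was at 13.5, 14.7 and 14.1 normalised CPM in unselected batch 2 and at 14.0, 13.3 and 17.7 in batch 1. The digestion libraries had a lowest value of 0.176, a median of 0.337 and a highest of 0.588. Its log2 fold change was -5.62 (SE 0.17) after digestion, 0.50 (SE 0.12) after polyA selection and 0.76 (SE 0.12) after pull-down. Per kilobase of transcript model, unselected libraries of batch 2 gave a mean of 151 ± 6.2 (SD, n = 3) normalised CPM for Hbb-bs, 110 ± 4.5 for Hba-a2, 76.4 ± 8.0 for Hba-a1 and 20.1 ± 0.88 for Hbb-bt. On this scale the neighbours in the order Hbb-bs, Hba-a2, Hba-a1, Hbb-bt were each further apart than the sum of their SDs. The step between the alpha copies depends on the model lengths and on how their shared reads were divided. Before division by length, Hba-a2 had 61.1 ± 2.5 and Hba-a1 53.4 ± 5.6 normalised CPM, a gap within the sum of their SDs. After polyA selection Hbb-bs (222 ± 20.2, n = 9) and Hba-a2 (210 ± 63.0) did not differ beyond their spread, and after digestion neither did Hbb-bt (0.464 ± 0.19) and Hba-a1 (0.440 ± 0.28).

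The digestion libraries lay below the unselected libraries of batch 2 without overlap in 11.5% of the 15422 genes, below the pull-down libraries in 13.4% and below the polyA libraries in 24.1%; all 4 globin genes were among them each time. In the ranking of all 15422 genes by log2 fold change of digestion against unselected liver, the 4 members held places 19, 28, 35 and 38 from the lowest. All members but Hba-a1 (3 of 4) lay above unselected liver of their batch without overlap after polyA selection, as did 22.6% of all genes, and the same 3 after pull-down, as did 11.3% of all genes. On plain library totals the digestion differences were smaller but of the same sign: -4.59 for Hba-a1, -3.61 for Hba-a2, -2.82 for Hbb-bs and -2.79 for Hbb-bt. Summed red cell genes other than globins ran from 80.1 to 86.5 normalised CPM after digestion and from 75.2 to 80.4 in unselected batch 2. Most of that sum was the single gene Alas2, with a mean of 71.6 after digestion and 66.5 in unselected batch 2. The sum therefore says little about the other red cell genes.

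On the TMM scale, polyA and pull-down libraries differed more in the chains than in the total of globin mRNA. Over 9 pairs matched on ramp and length, the summed level differed by a mean log2 of -0.03 (SD 0.07), polyA minus pull-down. The alpha sum was higher in polyA in 8 of 9 pairs (mean log2 0.16, SD 0.14), and the beta sum was lower in 9 of 9 (mean log2 -0.21, SD 0.08). On library totals the difference of the sum turned from -0.03 to 0.28, larger than that of either beta gene. For Hbb-bs it turned from -0.23 to 0.08 and for Hbb-bt from -0.17 to 0.14. The median of all genes moved with them, from 0.01 to 0.32. Both beta genes lay below that median on either scale. The ratio of alpha to beta counts within a library does not depend on the scaling.

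That ratio was 1.20, 1.16 and 1.19 in unselected batch 1 and 1.06, 1.03 and 1.08 in unselected batch 2. PolyA libraries ran from 0.954 to 1.39 with a median of 1.07, and pull-down libraries from 0.633 to 1.39 with a median of 0.827. Without the pull-down library of 1.13 M counts, which held the highest value of its set on 543 globin counts, the pull-down range ended at 0.915, below all unselected libraries. Digestion libraries ran from 0.374 to 0.614 with a median of 0.497, below all other libraries. In matched pairs the log2 ratio was lower after digestion than after polyA selection in 9 of 9 (mean -1.20, SD 0.22), lower than after pull-down in 9 of 9 (mean -0.82, SD 0.35), and higher after polyA selection than after pull-down in 8 of 9 (mean 0.38, SD 0.18). The alpha genes were thus further below their unselected level than the beta genes in digestion libraries, as the fold changes above also show; these are descriptions of the values by which the genes were chosen.

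**Figure D2:**
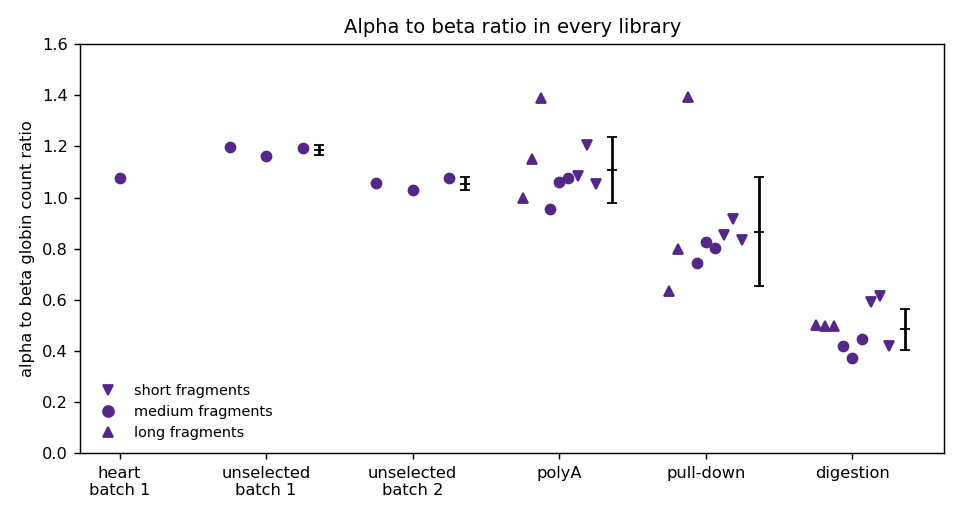
Ratio of alpha to beta globin counts in each of the 34 libraries by group; marker shapes give the fragment length, and the bars beside each group are its mean and SD. The digestion libraries sit between 0.374 and 0.614, below every other library.

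How the counts of a pair divide between its copies did not enter the choice of the genes and was tested. In unselected liver, Hba-a2 took 50.5%, 55.3% and 56.7% of alpha counts in batch 1 and 53.0%, 57.0% and 50.4% in batch 2. Hbb-bt took 11.9%, 11.6% and 15.7% of beta counts in batch 1 and 12%, 13.9% and 13.1% in batch 2. Over 16 exact tests (two-sided sign-flip tests over 9 matched pairs, or permutations of 9 against 3 libraries, adjusted together by Benjamini-Hochberg), no copy ratio passed an adjusted p of 0.05, and 4 had an unadjusted exact p under 0.05. The lowest adjusted p was 0.0833, shared by 3 exact tests. The log2 ratio of Hba-a2 to Hba-a1 was higher after polyA selection than after pull-down in 8 of 9 pairs (mean 0.43, SD 0.68; exact p = 0.0156 before adjustment). Without the pull-down library of 1.13 M counts the mean was 0.24. The ratio of Hbb-bt to Hbb-bs was higher after pull-down than in unselected batch 2, with a mean difference of 0.18 and 8 of 9 libraries above all 3 unselected ones (exact p = 0.0136 before adjustment). Without replicate 1 of unselected batch 2 that difference was 0.11. The tests of 9 against 3 libraries are not matched, since the unselected libraries all had medium fragments, the slow ramp and less input. They cannot separate the selection method from these settings. The same beta ratio was higher with a fast than with a slow ramp in 8 of 9 pairs (mean 0.24, SD 0.31; exact p = 0.0156 before adjustment). By method its mean was 0.03 for polyA, 0.07 for pull-down and 0.60 for digestion, where Hbb-bt had at most 26.0 counts in a library. The smallest p these exact tests can give is 0.00391 for pairs and 0.00455 for 9 against 3.

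In polyA libraries the split of the alpha genes differed with fragment length. Hba-a2 took 76.2%, 72.7% and 75.9% of alpha counts in the long-fragment polyA libraries (fast, medium and slow ramp), 56.8%, 57.1% and 59.1% in the medium ones and 54.5%, 56.4% and 58.0% in the short ones. The 3 long libraries thus lay above the 6 others with no overlap. In levels, Hba-a1 had a mean of 53.3 ± 7.5 normalised CPM (SD, n = 3) in long and 77.7 ± 11.1 in short polyA libraries, while Hba-a2 had 159 ± 22.3 in long and 99.9 ± 12.8 in short. The log2 fold change of long against short within polyA was -0.56 (SE 0.09) for Hba-a1 and 0.66 (SE 0.08) for Hba-a2. The copies therefore moved in opposite directions. Their sum differed by a log2 of 0.62 in the slow ramp pair, 0.02 in the medium and 0.13 in the fast (mean 0.26, SD 0.32), so that mean rests mostly on the slow pair.

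In pull-down libraries Hba-a2 took 63.8% and 60.4% of alpha counts in the fast and medium ramp libraries with long fragments, 56.4% to 56.9% with medium fragments and 53.7% to 57.1% with short ones, and 44.0% in the shallow library. Digestion libraries ran from 35.6% to 100.0% on few counts and allow no reading. The long minus short difference of the log2 ratio of Hba-a2 to Hba-a1 was 1.19, 1.04 and 1.41 in the slow, medium and fast polyA pairs (mean 1.21, SD 0.19) and -0.76, 0.20 and 0.60 in the pull-down pairs, the first of which holds the shallow library. The exact sign-flip test over all 9 pairs (adjusted p = 0.409) includes that library and the digestion pairs, and nothing is read from it. With 3 pairs, a method alone cannot be tested at 0.05 by an exact test, and the difference between methods was not tested.

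**Figure D3:**
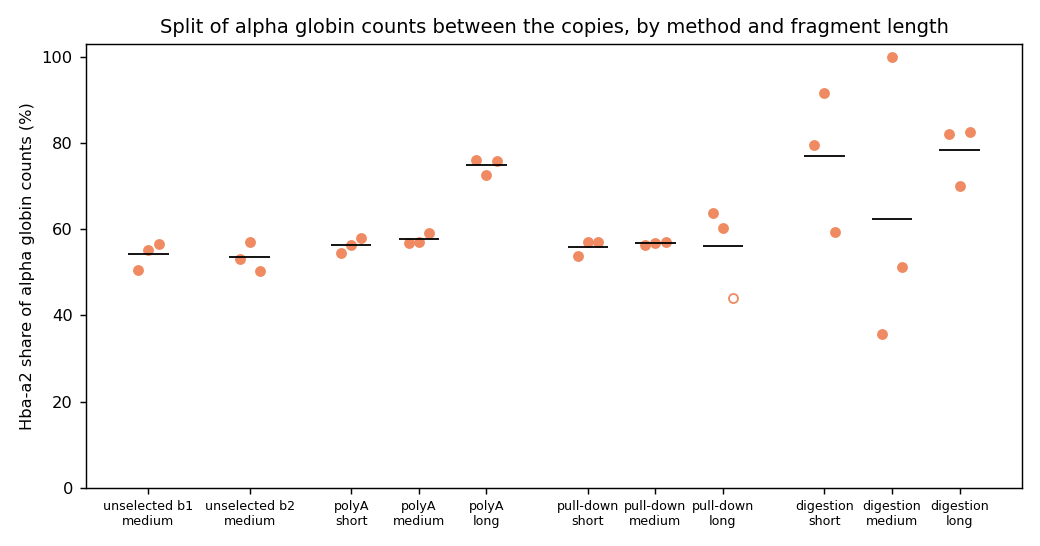
Share of alpha globin counts given to Hba-a2, in percent, by method and fragment length; each point is 1 library, the line is the mean of 3, and the open point is the pull-down library of 1.13 M counts. The long polyA libraries lie at 72.7% to 76.2%, above the 54.5% to 59.1% of the other polyA libraries.

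On the TMM scale the summed globin level was higher with long than with short fragments in all 9 pairs. The mean log2 difference was 0.23 (SD 0.20) in polyA, 0.28 (SD 0.17) in pull-down and 0.54 (SD 0.15) in digestion libraries. On plain library totals the fast pull-down pair went the other way, with 377 CPM for long and 394 CPM for short fragments. Without the slow ramp pair, which in pull-down holds the library of 1.13 M counts, the mean was 0.12 in polyA and 0.18 in pull-down. In polyA and pull-down libraries the medium fragments had the lowest means, 308 and 320 normalised CPM, below the 337 and 335 of short fragments. In digestion libraries the means were 3.08 for short, 3.19 for medium and 4.46 for long fragments; the long-fragment values were 4.55, 4.51 and 4.33 normalised CPM and the short ones 3.25, 2.75 and 3.23. The median log2 difference of all genes between long and short fragments within each method was between -0.01 and 0.00. For single beta genes, the log2 fold change of long against short was 0.18 (SE 0.03) for Hbb-bs and 0.11 (SE 0.05) for Hbb-bt in polyA, 0.23 (SE 0.09) and 0.43 (SE 0.07) in pull-down, and 0.53 (SE 0.12) and 0.78 (SE 0.37) in digestion libraries. The ramp rate left the summed level nearly where it was: fast minus slow gave a mean log2 of -0.02 (SD 0.13) in polyA, -0.04 (SD 0.21) in pull-down and 0.05 (SD 0.03) in digestion libraries.

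The member levels of the unselected batches are also given as a description. The log2 fold change of batch 2 against batch 1 was -0.23 (SE 0.26) for Hba-a1, -0.27 (SE 0.14) for Hba-a2, -0.08 (SE 0.07) for Hbb-bs and -0.09 (SE 0.15) for Hbb-bt. The batch 2 libraries lay below those of batch 1 without overlap for Hba-a1, Hba-a2, the sum of the 4 genes and the alpha to beta ratio, and the batches overlapped for Hbb-bs and Hbb-bt. Of all genes tested, 7.13% lay below batch 1 in this way. In the test between batches 0.0% of genes passed an edgeR adjusted p of 0.05, 848 of 15422 had an unadjusted p under 0.05, and DESeq2 called 18.

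Of the other globins, only Cygb passed the filter in liver. The embryonic globins Hba-x, Hbb-y, Hbb-bh1 and Hbb-bh2 were listed at 0 in every library. Myoglobin, Mb, the oxygen store of muscle, averaged 0.0156 normalised CPM after polyA selection and was at 0 in unselected liver, and stood at 997 CPM in the heart library. Cytoglobin, Cygb, known in the liver from stellate cells, had a mean of 5.5 ± 0.40 normalised CPM (SD, n = 9) after digestion against 4.95 ± 0.54 (n = 3) in unselected batch 2, a log2 fold change of 0.11 (SE 0.18; edgeR adjusted p = 0.758).

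Of 20 other red cell genes in the table, 9 passed the filter. None of the 9 passed the test after digestion, also at an unadjusted p under 0.05 (0 genes) and with DESeq2 (0 genes). After pull-down 1 rose and after polyA selection 2 rose (edgeR adjusted p under 0.05). Over all genes, 7.08% were called higher and 7.64% lower after digestion, 17.5% and 15.3% after pull-down, and 25.6% and 24.8% after polyA selection. Alas2, the red cell form of the first enzyme of haem synthesis, had 74.4 ± 0.93 normalised CPM (SD, n = 3) in unselected batch 1, 66.5 ± 2.5 in batch 2 and 71.6 ± 2.4 (n = 9) after digestion. Its log2 fold change after digestion was 0.09 (SE 0.04; edgeR adjusted p = 0.191), and it rose by 0.53 (SE 0.04; adjusted p = 9.89e-12) after polyA selection and by 0.52 (SE 0.04; adjusted p = 4.41e-11) after pull-down. Bpgm, the enzyme that makes the regulator 2,3-bisphosphoglycerate in red cells, rose by 0.67 (SE 0.11; adjusted p = 1.13e-05) after polyA selection and had -0.17 (SE 0.11; adjusted p = 0.489) after digestion. Slc4a1, the anion exchanger of the red cell membrane, was close to 0, with 0.488 ± 0.44 normalised CPM (n = 3) in unselected batch 2 and 0.587 ± 0.092 (n = 9) after digestion. Klf1, the red cell transcription factor, had 1.18 ± 0.12 normalised CPM in unselected batch 2 and 1.83 ± 0.29 after digestion, a log2 fold change of 0.57 (SE 0.31; adjusted p = 0.306). The median log2 fold change of the 9 genes after digestion was 0.50, beside 0.04 for all genes tested.

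Genes of haem synthesis all passed the filter. After digestion 5 of 12 rose, with a median log2 fold change of 0.15, after pull-down 9 rose and 1 fell (median 0.42), and after polyA selection 10 rose (median 0.55). None fell after digestion or polyA selection in edgeR, at an unadjusted p under 0.05 or in DESeq2 (0 genes each). DESeq2 called 3 higher after digestion and 6 after pull-down. Of the 7 hepatocyte markers, 6 rose and 1 fell after polyA selection (median log2 fold change 0.51), 5 rose after pull-down (0.44), and 1 rose and 1 fell after digestion (-0.21); their part in the haem lists was not tested. Cpox, which makes protoporphyrinogen, rose by 0.56 (SE 0.07; edgeR adjusted p = 1.45e-06) after digestion, 0.21 (SE 0.07; adjusted p = 0.0308) after pull-down and 0.38 (SE 0.07; adjusted p = 7.34e-05) after polyA selection. Alas1, the form of the first enzyme that liver cells use, rose by 0.16 (SE 0.05; adjusted p = 0.0303) after digestion, with 0.09 (adjusted p = 0.206) after pull-down and 0.01 (adjusted p = 0.919) after polyA selection. Slc25a37, the mitochondrial iron importer mitoferrin, was the 1 that fell after pull-down, with a log2 fold change of -0.71 (SE 0.07; adjusted p = 3.87e-09).

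Of 12 genes that clear haemoglobin and haem, 5 fell after digestion, 5 rose and 1 fell after pull-down, and 8 rose and 3 fell after polyA selection. None rose after digestion in edgeR or DESeq2, with 1 at an unadjusted p under 0.05. Their median log2 fold change was -0.15, 0.19 and 0.45, in that order. Hp, haptoglobin, which binds free haemoglobin in plasma, had 751 ± 34.8 normalised CPM (SD, n = 3) in unselected batch 2 and 667 ± 25 (n = 9) after digestion, a log2 fold change of -0.22 (SE 0.05; edgeR adjusted p = 0.00567). Hpx, hemopexin, which binds haem, had -0.21 (SE 0.06; adjusted p = 0.014). Cd163, the macrophage receptor for haptoglobin bound to haemoglobin, had -0.77 (SE 0.14; adjusted p = 0.000136) after digestion and -1.64 (SE 0.14; adjusted p = 3.89e-11) after polyA selection. Blvra, which turns biliverdin into bilirubin, had -0.75 (SE 0.14; adjusted p = 0.000673) after digestion. Of the 4 markers of Kupffer cells, which carry Cd163, 3 also fell after digestion and 4 after polyA selection, and their summed level was 63.1 to 71.7 normalised CPM after digestion against 86.1 to 90.3 in unselected batch 2; the part of this in the Cd163 value was not tested. The directions of these lists hold relative to the TMM scale: on plain library totals every one of the 32 genes of the red cell, synthesis and clearance lists that passed the filter was called higher after digestion, while the globin genes stayed lower. Over the 3 lists together the 5 higher calls after digestion became 1 with DESeq2 size factors and 2 without replicate 1 or 2 of unselected batch 2. The 5 lower calls, all in the clearance list, became 2 on totals without rRNA genes and Lars2 or without replicate 3 of unselected batch 2, and 3 with no filter or without replicate 1. Markers of other blood cells were low throughout: after digestion and in unselected batch 2, in that order, the summed platelet markers ran from 1.88 to 2.45 and from 1.88 to 2.92 normalised CPM, the lymphocyte markers from 1.49 to 2.34 and from 0.834 to 2.93, and the neutrophil markers reached 0.342 and 0.625.

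**Figure D4:**
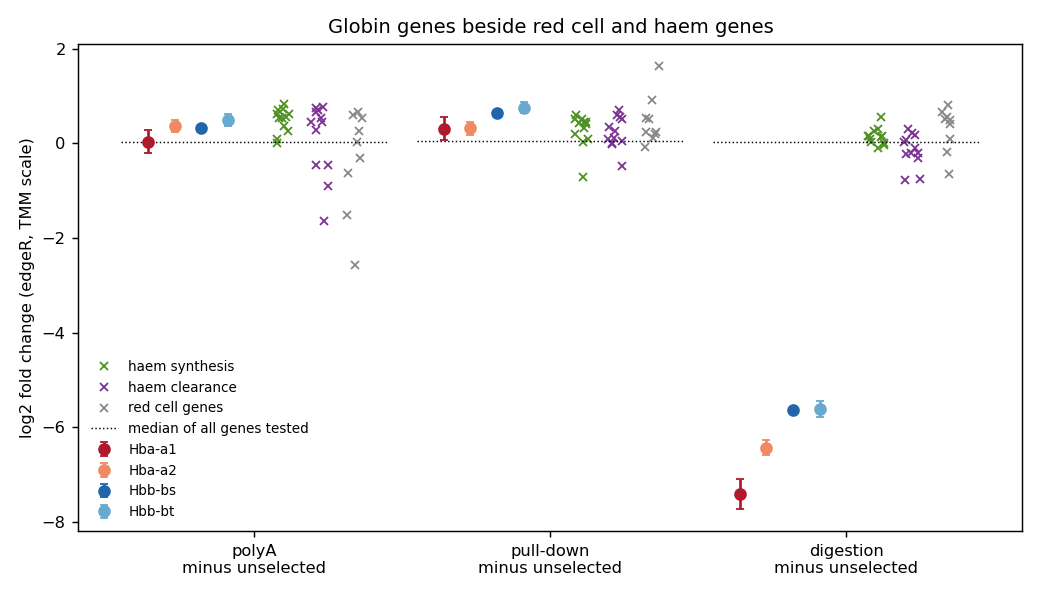
Log2 fold change against unselected liver of the same batch (edgeR, TMM scale) for the 4 globin genes, with SE bars, beside the tested genes of the haem synthesis, haem clearance and red cell lists (crosses) and the median of all genes (dotted). After digestion the globin genes lie between -7.42 and -5.62, while the list genes lie within 1 log2 unit of 0.

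The 5 genes whose level followed the summed globin level most closely across the 33 liver libraries were Smc1a (a cohesin subunit; Pearson r = 0.980 on log2 values), Rpl21 (a ribosomal protein; 0.978), Pdcd5 (0.978), Ndufa13 (a subunit of respiratory complex I; 0.974) and Bms1 (a factor of ribosome assembly; 0.971). The libraries share their RNA and fall into groups by method, so these r values describe the group levels. Rpl21 had 15.4 ± 2.7 normalised CPM (SD, n = 9) after digestion against 76.6 ± 4.7 (n = 3) in unselected batch 2, 117 ± 14.8 (n = 9) after pull-down and 155 ± 23.0 (n = 9) after polyA selection. Ndufa13 had 8.90 ± 1.3 after digestion against 41.7 ± 0.98 in unselected batch 2. Smc1a had 19.6 ± 1.4 after digestion against 41.9 ± 1.9. All 5 were lowest after digestion, by far less than the globin genes.

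Heart and liver were compared in unselected libraries of batch 1, with 1 heart library, so no test was possible. In bulk RNA, fewer cells of a type and less RNA per cell cannot be told apart. The globin genes made up 3630 of 22.3 M counts in heart, 0.0163% (95% Wilson interval 0.0158% to 0.0168%), and 0.00580%, 0.00560% and 0.00562% in the 3 liver libraries, whose intervals reached at most 0.00613%; the intervals cover counting error only. With TMM over these 4 libraries, the summed level was 124 normalised CPM in heart and 62.1 ± 1.5 (SD, n = 3) in liver, 2.00-fold higher in heart. The fold was 2.87 on library totals and 2.13 on totals without rRNA genes and Lars2, higher in heart on each scale. On the TMM scale Hba-a1 had 30.7 in heart and 15.5 ± 1.5 in liver, Hba-a2 33.6 and 18.2 ± 0.60, Hbb-bs 52.3 and 24.7 ± 1.1, and Hbb-bt 7.44 and 3.70 ± 0.58. The differences ran from 1.84-fold for Hba-a2 to 2.11-fold for Hbb-bs. All 4 were above all 3 liver libraries, as were 43.8% of the 14209 genes with at least 10 counts over the 4 libraries.

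Hba-a2 took 52.3% of alpha counts in heart and Hbb-bt 12.5% of beta counts, both within the range of the liver libraries of batch 1. The alpha to beta ratio was 1.08 in heart, below the 1.16 to 1.20 of those libraries. Alas2 went the other way, with 2.33 CPM in heart and 16.8 ± 0.33 CPM (SD, n = 3) in liver, while Bpgm had 3.27 and 1.56 ± 0.16. The membrane skeleton genes Sptb and Ank1, which are also known from muscle, had 44.6 and 37.2 CPM in heart and 0.334 ± 0.041 and 0.0624 ± 0.054 CPM in liver. Klf1 was listed at 0 in heart and had 0.320 ± 0.081 CPM in liver. The summed platelet markers were at 1.17 CPM in heart and 0.333 to 0.599 CPM in liver. Of the 6 neutrophil markers 5 were at 0 in heart and 4 in all 3 liver libraries of batch 1. Their sum was 0.0449 CPM in heart and 0 to 0.138 CPM in liver. The part of these blood cell genes in the globin difference was not tested.

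**Figure D5:**
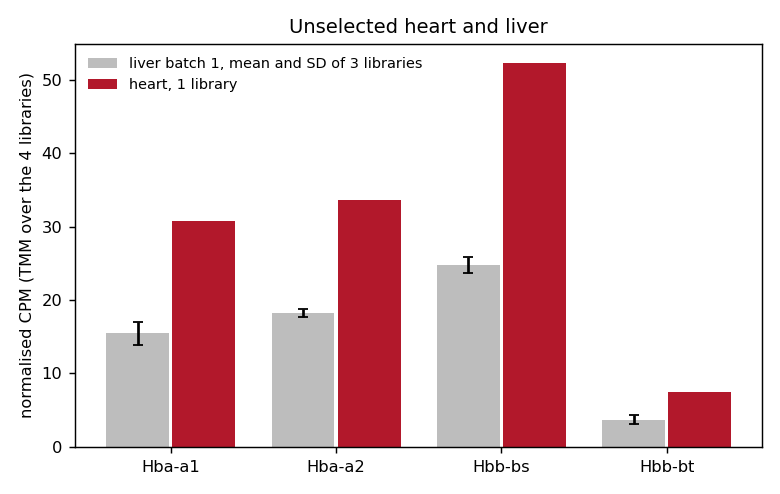
Normalised CPM (TMM over the 4 unselected libraries of batch 1) of the 4 globin genes in liver (grey, mean and SD of 3 libraries) and heart (red, 1 library, no error). Every gene was higher in heart, from 1.84-fold to 2.11-fold.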

How the data were processed

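The members and the gene lists were chosen with earlier results of these data known. The deposited table holds expected counts per gene for 34 libraries. Per the submitters' processing notes, UMI-tools 1.1.1, Salmon 1.9.0, R 4.4.0 and the build GRCm38 were used; their order, the transcript set and whether duplicates were removed are not given in the sources used here. GENCODE M21 gave symbols for 50896 of the 51368 identifiers. The other 472 held at most 0.0452% of any library's counts. Expected counts were rounded and fitted with edgeR 4.0.16 (R 4.3.3, limma 3.58.1): TMM, filterByExpr, the quasi-likelihood F-test and Benjamini-Hochberg adjustment over 15422 genes in 33 liver libraries, with group, ramp and length as terms. The standard error is the log2 fold change divided by the square root of F. In simulated data (digestion against unselected, 12111 genes, 200 changed by 4-fold) 200 were recovered with 14 false calls. The changed genes were drawn from well-counted genes, all genes had the same spread, and the groups differed in nothing else. The simulation therefore does not cover genes with few counts or methods that differ in many genes. Copy ratios used unrounded counts plus 0.5. DESeq2 1.42.0, other scalings, no filter, a pseudocount of 5 (chosen after seeing the data) and left-out libraries were alternatives. Unselected replicates differed beyond sampling noise (chi-square per gene 1.41 to 3.85), so none was counted as a repeat. Genes were named by rule: the members, at most 8 genes per list in written order among those passing the filter, and the 5 genes most correlated with the globin sum on log2(normalised CPM + 0.1). Bpgm, Slc25a37 and the globins under the filter were named after their values were seen. The printed sequences are from GENCODE M21 (GRCm38), and RefSeq gave the gene starts set beside the GENCODE ones. Python 3.11.15 and matplotlib 3.10.9 were used for the rest.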

Additional observations from a re-analysis of the deposited data

Results flagged for a closer look

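In the pull-down library with slow ramp and long fragments, the ratio of alpha to beta counts was 1.39 and Hba-a1 stood at 144.6 normalised CPM. Both values stood apart from the other 8 pull-down libraries by a gap wider than Dixon's 95% limit for 9 samples, which is used here to point out the library and not as a test of the globin levels. That library held 1.13 M counts, of which 543 were globin counts. Of 24 such checks, chance would pass the limit in about 1.2.

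The log2 ratio of Hbb-bt to Hbb-bs moved in opposite directions with fragment length in polyA and pull-down libraries. It was lower with long than with short fragments in 3 of 3 polyA pairs (mean -0.08, SD 0.05). It was higher in 3 of 3 pull-down pairs (mean 0.17, SD 0.05) and 3 of 3 digestion pairs (mean 0.22, SD 0.08). The slow pull-down pair holds the library of 1.13 M counts, with 34.2 Hbb-bt counts. Digestion libraries held 5.9 to 26.0 Hbb-bt counts, so the digestion difference allows no reading. The polyA mean was below the pull-down mean by -0.25 and below the digestion mean by -0.30 (log2, polyA minus the other method). These differences between methods were not tested.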

How the results depend on the processing

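Digestion kept the summed globin level below unselected liver, pull-down and polyA under every alternative run. On library totals the log2 difference of the sum was 3.09 for polyA, 2.91 for pull-down and -3.18 for digestion against unselected liver (0.45, 0.66 and -5.99 with TMM), -6.08 for digestion against pull-down (-6.64), 0.28 for polyA against pull-down (-0.03), and 1.52 for heart against liver (1.00; 1.09 without rRNA genes and Lars2). Without the pull-down library of 1.13 M counts, polyA against pull-down was 0.0077 for the sum, and fast minus slow was -0.016 for the alpha copy ratio (0.12 with it). For Hba-a1, polyA against unselected was -0.093 on totals without rRNA genes and Lars2, -0.019 with DESeq2 size factors, -0.016 without that pull-down library and between -0.0049 and 0.13 when 1 unselected library of batch 1 was left out. For polyA against pull-down, Hba-a1 was 0.26 on library totals and 0.051 without that library, Hbb-bs 0.084 and Hbb-bt 0.14 on library totals. With a pseudocount of 5 the beta copy ratio was -0.17 for polyA minus digestion and 0.20 for digestion minus pull-down. Leaving out 1 unselected library moved its digestion minus unselected value between -0.031 and 0.088. Leaving out 1 pair moved fast minus slow of the sum between -0.079 and 0.049 in polyA and between -0.12 and 0.076 in pull-down. The causes were not tested. Of the 32 list genes tested, 32 were called on library totals after pull-down (16 with TMM) and 32 after digestion (10 with TMM, 5 higher and 5 lower). After digestion 6 were called with DESeq2 size factors (1 higher, 5 lower) and 5 to 7 without 1 unselected library.

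The replicate numbers of the unselected libraries share only a number: same-numbered libraries of both batches had deviations that correlated across genes with r of 9e-04, -0.0483 and -0.0706, and 0 of 6 libraries correlated best with its own number. The replicate block on these 6 libraries raised the genes called between batches from 39 to 91. The members past an adjusted p of 0.05 went from 0 to 1 (Hba-a2) with the block. Nothing is read from this, since the numbers pair no libraries and the member levels are described, not tested. Depth limits Hba-a1 and Hbb-bt after digestion, where each library held at most 25.1 and 26.0 counts.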
